A study of Oncorhynchus mykiss with 14 samples.

Results

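The response of rainbow trout eggs to gynogenetic activation was compared between females whose eggs had increased and females whose eggs had decreased competence for gynogenesis. All 14 of 14 libraries entered the comparison, as 7 pairs of a gynogenetic and a control library from the same female. For each female and gene, the paired change was the log2 ratio of the gynogenetic over the control library, in CPM (assigned counts scaled to the same library total) with 0.5 added to both. The paired changes of the 4 increased females (F1, F4, F7 and F8) were set against those of the 3 decreased females (F2, F3 and F6). The quantity of interest was the interaction, that is the change in increased females minus the change in decreased females. A positive interaction means a higher gynogenetic-to-control ratio in the increased females.

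All libraries were made from pools of eggs of the Rutki strain, and the labels give every library the genotype XX, Doubled Haploids. In the gynogenetic group, eggs were activated with UV-irradiated sperm of European grayling. In the control group, other eggs of the same female received rainbow trout sperm that had not been irradiated. The study also gave gynogenetic eggs, but not control eggs, a high hydrostatic pressure shock to double the maternal chromosomes. It preserved the sequenced eggs straight after treatment and does not say whether this was before or after the shock. The part of the shock in the results was not tested. Competence was the study's class for the survival of gynogenetic offspring of each female. In the study's clustering on genes correlated with survival, however, the gynogenetic library of F1 fell with those of F2, F3 and F6. Competence belongs to the female, so it cannot be told apart from any other trait by which these 7 females differ.

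The ripe egg of a fish is loaded with maternal RNA and is almost silent in transcription until the zygotic genome is activated several divisions later. Stored transcripts change mainly by decay, by lengthening or shortening of the poly(A) tail, and by masking. Irradiated sperm starts development but adds no working paternal genome. Because the libraries were made from polyadenylated RNA, less RNA and a shorter poly(A) tail cannot be told apart in them. Sperm RNA also differed in species between both groups of libraries, and its part in the results was not tested.

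The libraries held 45860801 to 67557305 assigned counts in the gynogenetic group and 34535902 to 57014149 in the control group. Female F7 had the deepest gynogenetic and the shallowest control library, a ratio of 1.96, and the ratio of the other 6 females lay between 0.812 and 1.41. The log2 depth ratio averaged 0.230 ± 0.539 in increased females (SD, n = 4) and 0.0290 ± 0.419 in decreased females (SD, n = 3; two-sided exact permutation p = 0.600). Cyclin B1, a marker of the egg, was the only one of 15 egg markers with a symbol at hand, and no marker of follicle, blood, leukocyte or sperm cells had one. The part of such cells in the results was therefore not tested.

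Of 30919 genes with a mean above 1 normalized count, 8 passed the test of the interaction, which is 0.0259% (edgeR quasi-likelihood test with the female as a block, Benjamini-Hochberg adjusted p below 0.05). Of these genes, 2 had a positive (0.00647%) and 6 a negative interaction (0.0194%). At an unadjusted p below 0.05 there were 715 genes, or 2.31% of those tested. A gene called GATA2 was the only one of the 8 with a symbol, and it had the lowest p of all genes. Symbols were at hand only for genes that the study lists for a correlation with survival. The count of 8 was 2 in DESeq2, 1 with edgeR's filterByExpr and 0 in limma on the paired changes (975 at an unadjusted p below 0.05), and without F4 it was 1, GATA2.

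GATA2 (ENSOMYG00000041565, described as GATA binding protein 2a) encodes a zinc finger transcription factor. In vertebrates, GATA factors of this class act in early ectoderm patterning and in the formation of blood. In increased females, its level was 7.04 CPM in gynogenetic and 3.20 CPM in control eggs of F1. It was 19.3 and 8.24 CPM in the same order in F4, 24.7 and 8.69 CPM in F7, and 32.8 and 1.80 CPM in F8. In decreased females, its level was 2.14 CPM in gynogenetic and 9.07 CPM in control eggs of F2, 1.04 and 7.77 CPM in F3, and 4.61 and 16.5 CPM in F6. The gynogenetic library was thus the higher one in all 4 increased females and the lower one in all 3 decreased females.

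**Figure D1:**
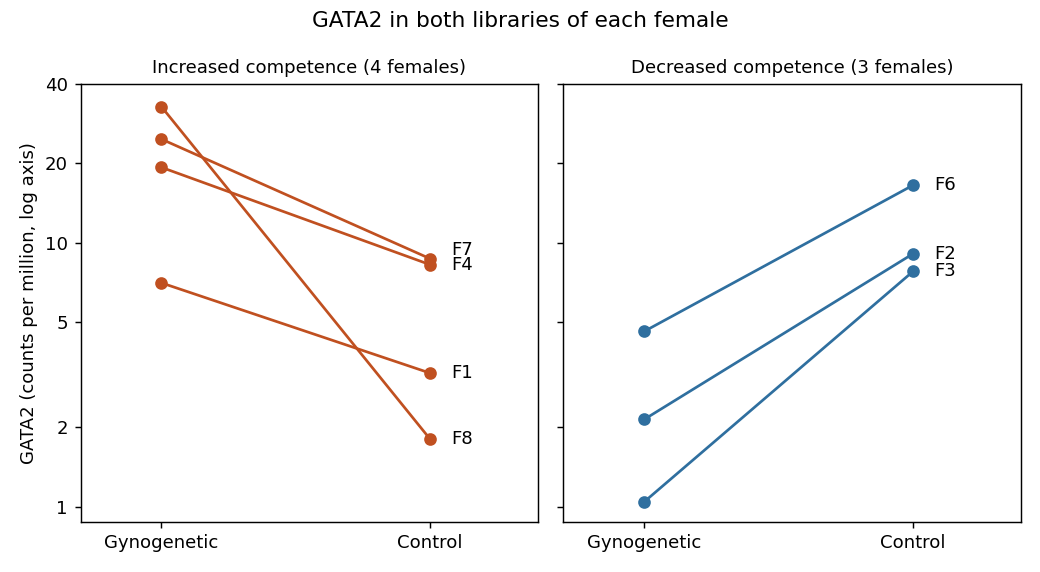
GATA2 level in CPM (log axis) in the gynogenetic and control library of each female, joined by a line, with increased competence in the left panel and decreased competence in the right panel. All 4 lines of increased females run down from the gynogenetic to the control library, and all 3 lines of decreased females run up.

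The paired changes of GATA2 were 1.03, 1.18, 1.45 and 3.85 in F1, F4, F7 and F8, against -1.86, -2.42 and -1.73 in F2, F3 and F6. Between the nearest females of both groups lay a gap of 2.76 on the log2 scale. The fitted change was 3.75-fold in increased females (edgeR adjusted p = 1.2e-08) and 0.201-fold in decreased females (edgeR adjusted p = 4.3e-10). The interaction was 4.22 on the log2 scale (SE 0.424, edgeR adjusted p = 6.7e-19). An exact permutation test over the 35 ways to split 7 females into 4 and 3 gave p = 0.0286, the smallest that it allows. As GATA2 was named here for its low interaction p and its wide gap, that value adds no support. GATA2 was also the gene with the lowest p in each of the 16 other fits that were tried. It passed the adjusted threshold in 13 of them, but not in limma (adjusted p = 0.9998), at a mean of 10 or more (edgeR adjusted p = 0.16) or without the female as a block (edgeR adjusted p = 1).

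The study had picked GATA2 by its correlation with survival in the gynogenetic libraries, so the interaction is not independent evidence for the gene. The levels show that both libraries contributed. In gynogenetic eggs, all 4 increased females lay above all 3 decreased females (7.04 to 32.8 CPM against 1.04 to 4.61 CPM). In control eggs, the ranges overlapped, with 1.80 to 8.69 CPM in increased females and 7.77 to 16.5 CPM in decreased females. Salmonid genomes carry many duplicated genes, and whether reads of a second GATA2 copy were lost or shared in counting was not tested.

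The other 7 called genes had no symbol in the tables at hand. ENSOMYG00000027300 had a negative interaction of -2.24 (SE 0.416, edgeR adjusted p = 0.00072). Its paired changes were -0.58, -1.09, -0.33 and -0.41 in F1, F4, F7 and F8, against 1.66, 1.80 and 0.48 in F2, F3 and F6. Its sign was thus opposite in both groups of females with no exception, as for GATA2. Its level differed widely between clutches. The gynogenetic libraries held 26.6, 0.936, 13.4 and 2.03 CPM in F1, F4, F7 and F8, and 22.9, 7.06 and 0.927 CPM in F2, F3 and F6. The control libraries held 40.1, 2.56, 16.9 and 2.85 CPM in F1, F4, F7 and F8, and 6.91, 1.68 and 0.525 CPM in F2, F3 and F6. The gene was also called by DESeq2 (adjusted p = 0.0037), but not by limma (adjusted p = 0.9998), by edgeR after filterByExpr (adjusted p = 0.54) or at a mean of 10 or more (adjusted p = 0.89). Without F3 or F4 the edgeR adjusted p was 0.28 and 0.10.

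ENSOMYG00000028553 was the other gene with a positive interaction (1.18, SE 0.260, edgeR adjusted p = 0.0231). Here the gynogenetic libraries were lower in decreased females, with paired changes of -0.56, -2.07 and -2.12 in F2, F3 and F6. The paired changes in increased females were -0.65, 0.02, -1.28 and 0.06 in F1, F4, F7 and F8. F2 lay inside the range of the increased females, so the groups overlapped. The gene was abundant, at 137 to 549 CPM over the gynogenetic and 352 to 842 CPM over the control libraries. The call was lost in DESeq2, after filterByExpr and at a mean of 10 or more (adjusted p = 1 in each), and in limma (adjusted p = 0.9998). It was also lost without F1, F3, F4, F6 or F8, with edgeR adjusted p between 0.065 and 1.

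ENSOMYG00000042351 had the most negative interaction of the called genes (-5.30, SE 0.897, edgeR adjusted p = 5.4e-05). It was listed at 0 in both libraries of F4, in the gynogenetic library of F1 and in the control library of F2. Its other libraries held between 0.0888 and 6.07 CPM. The size of such a fitted change depends on the prior count of the fit. The call was lost in DESeq2, after filterByExpr and at a mean of 10 or more (adjusted p = 1 in each), and in limma (adjusted p = 0.9998). It was also lost without F1, F2 or F4, with edgeR adjusted p of 0.065, 0.052 and 0.097. The remaining 4 called genes had a negative interaction and were lower in gynogenetic than in control eggs of at least 2 increased females. In 3 of these 4, chosen here after their values were seen, the largest falls were those of F8 and F4. In the same 3 genes, the libraries of F2 and F3 held at most 0.48 CPM, and only F6 of the decreased females held more. The other gene was listed at 0 in both libraries of F3 and in the gynogenetic libraries of F1 and F4.

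**Figure D2:**
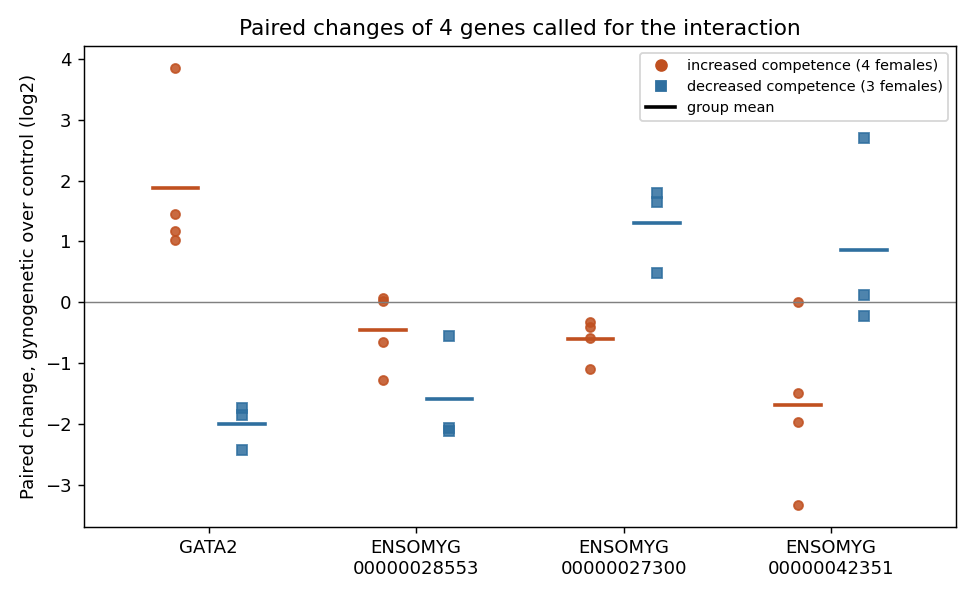
Paired change, gynogenetic over control (log2), of 4 genes called for the interaction, with increased females as circles left of decreased females as squares and bars at group means. GATA2 and ENSOMYG00000027300 show no overlap of the groups, while the groups of the other genes overlap.

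Most of the response to gynogenetic activation was the same in direction in both groups of females. In increased females, 640 genes changed (2.07% of those tested), with 127 higher (0.411%) and 513 lower (1.66%) in gynogenetic eggs. In decreased females 676 did (2.19%), with 118 higher (0.382%) and 558 lower (1.8%). These counts were 218 in increased and 243 in decreased females with filterByExpr and 52 and 16 in limma, and 215 in increased females without F4 and 189 in decreased females without F3. Of the 640 and 676 genes, 327 were called in both groups, and 326 of these moved in the same direction, the exception being GATA2. No library is shared by the groups of females, so each can be read in the other. Of the 513 genes lower in gynogenetic eggs of increased females, 97.7% were also lower in decreased females, with a median of -0.96 in increased and -0.93 in decreased females on the log2 scale. Of the 127 higher genes, 88.2% were also higher in decreased females, with medians of 0.98 in increased and 0.51 in decreased females. Over all genes at a mean of 10 or more, the mean paired change had the same sign in both groups for 66.2%.

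Genes taken from the decreased females gave a like picture. Of the 558 genes lower in their gynogenetic eggs, 98.8% were also lower in increased females, with medians of -0.75 in increased and -1.06 in decreased females. Of the 118 higher genes, 89.8% were also higher in increased females, with medians of 0.58 in increased and 1.22 in decreased females. In each case the genes were chosen in the group with the larger median. Female by female, the median paired change of the 513 genes was -0.89, -0.88, -1.10 and -0.71 in F1, F4, F7 and F8, where they were chosen, and -0.76, -0.81 and -0.84 in F2, F3 and F6. The lowering was thus also seen in each of the 3 decreased females, in which the genes had not been chosen. The median paired change of the 127 genes was 0.43, 1.61, 1.09 and 0.53 in F1, F4, F7 and F8, where they were chosen, and 0.083, 0.45 and 1.11 in F2, F3 and F6. It was thus near 0 in F2.

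**Figure D3:**
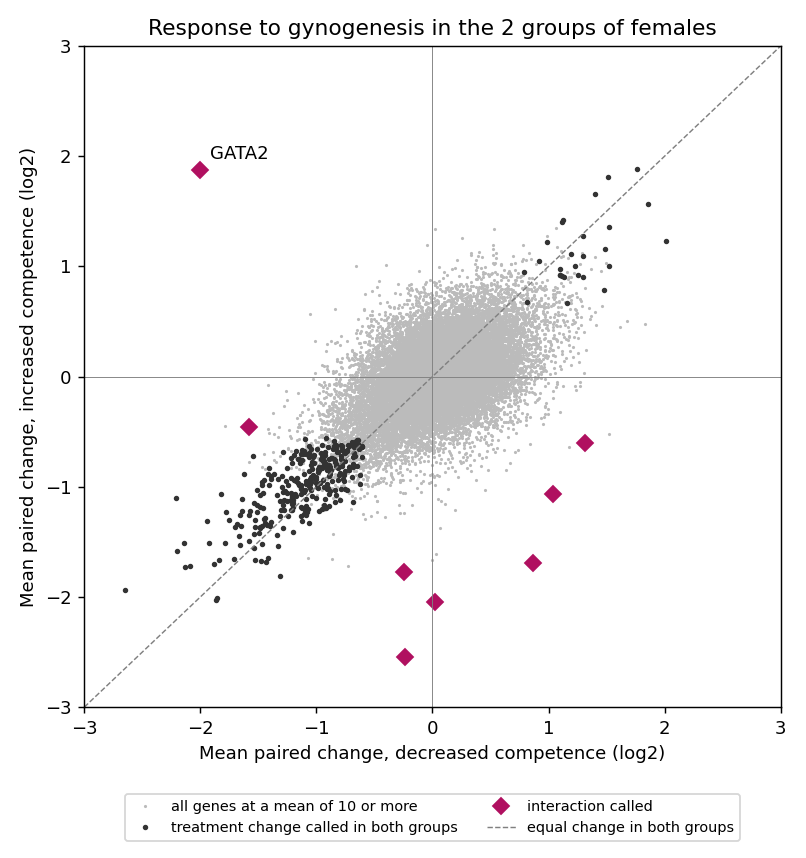
Mean paired change in increased females (vertical) against that in decreased females (horizontal), log2, for 24042 genes at a mean of 10 or more normalized counts, with genes called in both groups in black and the 8 genes called for the interaction as diamonds. The black points lie along the line of equal change, mostly below 0 on both axes, and GATA2 stands alone at upper left.

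Examples of shared changes, chosen after their values were seen, were MARCHF7, a membrane-bound ubiquitin ligase, and BRF2, a subunit of the RNA polymerase III initiation factor. MARCHF7 fell by 0.91 on the log2 scale in increased females (edgeR adjusted p = 0.00011) and by 1.17 in decreased females (edgeR adjusted p = 1.3e-05). BRF2 fell by 0.84 in increased females (edgeR adjusted p = 0.0032) and by 0.79 in decreased females (edgeR adjusted p = 0.034). Their interactions were 0.26 (SE 0.274) and -0.05 (SE 0.305). DAPK3, a kinase that acts on myosin and in cell death, rose by 0.93 in increased females (edgeR adjusted p = 0.045). Its change in decreased females was 0.98 (edgeR adjusted p = 0.075), and its interaction was -0.05 (SE 0.422). The call of DAPK3 in one group alone was thus not shown to be a difference between the groups.

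The paired changes of increased and decreased females did not overlap for 1300 genes, which is 4.2% of those tested. Groups of 4 and 3 females can also separate with no link to competence. The count was not set against such splits, so it is a description. They were higher in all increased females for 485 genes (1.57%) and lower for 815 (2.64%). With CPM over totals scaled by TMM factors, the same count was 641 higher and 619 lower, so the share of higher genes was 50.9% there and 37.3% over unscaled totals. The excess of lower genes therefore depended on the scaling. The median difference of the group means was 0.53 in the higher and -0.57 in the lower genes, and it exceeded 1 in absolute value for 33 and 67 of them. A full change of sign, with all females of a group above 0 and all of the other below, occurred in 73 and 107 of the 30919 genes tested. The share without overlap was 3.55%, 4.81%, 3.68%, 4.75% and 4.83% in 5 classes of rising mean level, divided at 10, 100, 1000 and 10000 normalized counts, with no steady trend.

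Of the 273 tested genes that the study lists for a correlation with survival, 53 came from the gynogenetic and 220 from the control libraries. Those chosen in gynogenetic eggs did not overlap between the groups for 10 of 53, and those chosen in control eggs for 11 of 220, beside 1300 of 30919 over all genes. GATA2 was the only called gene among the 273. Among the 53, 28 correlated positively with the survival rank, and 20 of the 28 had an interaction above 0 (median 0.35). Another 25 correlated negatively, and 17 of the 25 had an interaction below 0 (median -0.45). As their choice used the gynogenetic library of each pair, these counts are a description and support nothing.

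Among the 20 genes that the study tabulates from this list, 6 had no overlap (30%), beside 4.2% of all genes tested. Their choice also used the gynogenetic library of each pair, so this count is likewise a description and supports nothing. OXSR1, a kinase that answers to oxidative and osmotic stress, had the smallest spread. Its paired changes were 0.28, 0.29, 0.25 and 0.20 in F1, F4, F7 and F8, against 0.05, 0.03 and 0.10 in F2, F3 and F6. In gynogenetic eggs it was at 106, 161, 144 and 154 CPM in F1, F4, F7 and F8 and at 104, 111 and 114 CPM in F2, F3 and F6. In control eggs it was at 87.5, 131, 122 and 134 CPM in F1, F4, F7 and F8 and at 101, 109 and 107 CPM in F2, F3 and F6. Its groups did not overlap under any of 3 ways of computing the paired change. The interaction of 0.24 (SE 0.275, edgeR adjusted p = 1) did not pass. That SE came from the trend of the fit over genes, not from the spread of OXSR1 itself. Limma on the paired changes, which draws on the spread of each gene, called 0 of 30919 genes, so OXSR1 did not pass there either.

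LRRC47, a leucine-rich repeat protein, went the other way, with paired changes of 0.22, 0.05, -0.03 and 0.01 in F1, F4, F7 and F8, against 0.41, 0.33 and 0.43 in F2, F3 and F6. Its interaction was -0.28 (SE 0.275, edgeR adjusted p = 1). REM2, a small GTPase that inhibits calcium channels, had paired changes of -0.90, -0.84, -1.45 and -0.74 in F1, F4, F7 and F8, against 0.91, -0.12 and -0.73 in F2, F3 and F6. Its groups were 0.0075 apart and overlapped with TMM-scaled totals. ENSOMYG00000012474 carries the symbol IRF9 and the description of an interferon regulatory factor 4-like gene. Its paired changes were -0.89, 0.05, 0.40 and -0.16 in F1, F4, F7 and F8, against -0.92, -1.45 and -1.11 in F2, F3 and F6. It fell by 1.80 in decreased females (edgeR adjusted p = 0.015), and its interaction of 1.60 (SE 0.625, unadjusted p = 0.0105 from edgeR) did not pass after adjustment. The groups of IRF9 were 0.024 apart and overlapped with a pseudocount of 1. PPM1AB, a protein phosphatase, had at most 0.247 CPM in any library.

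The other 14 of the 20 genes overlapped between the groups. TMEM97, a sterol-linked membrane protein, and FBXW11A, which recognises substrates for a ubiquitin ligase, missed a separation by 0.017 and 0.042. TMEM97 was listed at 0 in both libraries of F2 and held at most 0.285 CPM in those of F3 and F6. Its changes in decreased females thus lay at the floor. IRS2A, an adaptor of insulin signalling, gave no usable change in decreased females, where 5 of 6 libraries were listed at 0 and the other held 0.0386 CPM. In F1, IRS2A was at 4.39 CPM in gynogenetic and 12.2 CPM in control eggs. In F4, F7 and F8, it was at 5.66, 8.08 and 8.52 CPM in gynogenetic and at 4.31, 9.67 and 10.2 CPM in control eggs. The interactions of SEC61AB, FSTL3, HESX1, PGAM5, CASP6, RASL11B, PRLHR2A, PPDPFA, ALX1 and MYRIP lay between -1.05 for ALX1 and 1.09 for RASL11B, that of the gene without a symbol, ENSOMYG00000008735, was -0.47, and none passed. PPDPFA fell by 0.81 in increased females (edgeR adjusted p = 0.022), and its change in decreased females was -0.66 (edgeR adjusted p = 0.26). CASP6 (ENSOMYG00000038502), an effector caspase by this name, bears another name in a second list of the study.

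**Figure D4:**
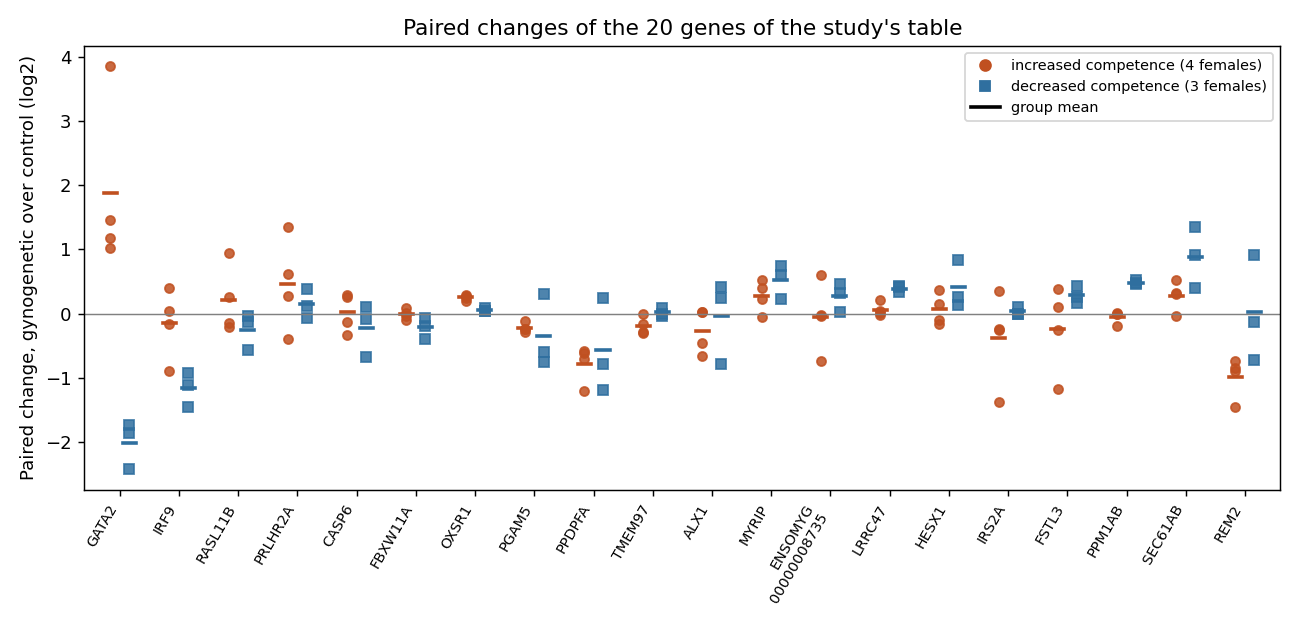
Paired change, gynogenetic over control (log2), of the 20 genes the study tabulates for correlation with survival in gynogenetic eggs, with increased females as circles left of decreased females as squares and bars at group means, ordered by the difference. GATA2, at far left, has a gap of 2.76 between the groups, and most other genes lie within 1 of 0 in both.

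Outside this table, KATNBL1, a regulator of the microtubule-severing enzyme katanin, had no overlap. The gene is still one that the study lists for a correlation with survival. That choice used a library of each pair, so the separation is a description and supports nothing. The paired changes of KATNBL1 were -0.50, -1.24, -0.53 and -0.56 in F1, F4, F7 and F8, against -0.23, -0.10 and -0.07 in F2, F3 and F6. It fell by 0.72 in increased females (edgeR adjusted p = 0.0024), while its change in decreased females was -0.20 (edgeR adjusted p = 0.94). The interaction of -0.52 (SE 0.255) had an unadjusted p of 0.0403 from edgeR and did not pass after adjustment. CNN1B, a calponin that binds actin, also had no overlap, with paired changes of -0.34, -0.34, -0.16 and -0.08 in F1, F4, F7 and F8, against 1.21, 0.26 and 0.71 in F2, F3 and F6. It was scarce, with at most 1.39 CPM in any library. CNN1B is also on the study's lists, so its separation likewise supports nothing.

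A further pair of genes, KPNA3, an importin of nuclear transport, and GRAMD1C (ENSOMYG00000003575), a sterol-binding protein, passed in decreased females only. KPNA3 fell by 1.02 in decreased females (edgeR adjusted p = 0.030) and GRAMD1C by 0.84 (edgeR adjusted p = 0.0036). The females did not follow their competence, though. KPNA3 had paired changes of -0.38, 0.05, -0.60 and 0.25 in F1, F4, F7 and F8, against 0.85, -1.51 and -1.98 in F2, F3 and F6. F2 lay above every increased female for KPNA3, and F7 was the second lowest of all females for GRAMD1C. The interactions were 0.83 (SE 0.375) and 0.55 (SE 0.265), with unadjusted p of 0.0274 and 0.0374 from edgeR. DAZAP2, which binds the germ cell factor DAZ, likewise had F2 and F8 as its highest and F3, F6 and F7 as its lowest females, and its interaction was 0.38 (SE 0.311).

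Other genes by the naming rule with a higher change in increased females were SACM1LA, a phosphoinositide phosphatase (0.58), PAFAH1B1A, a dynein regulator (0.46), and PPP2R2AB, a subunit of protein phosphatase 2A (0.54). Those with a lower change were PPAP2D, a lipid phosphatase (-2.86), SLC9A1B, a sodium/hydrogen exchanger (-0.54), and KRR1, a factor of ribosome assembly (-0.75). None of these passed after adjustment, and the paired changes of both groups overlapped in all 6. PPAP2D was scarce, with at most 1.23 CPM in any library, so the size of its fitted change depends on the prior count of the fit. SLC9A1B fell by 0.66 in increased females (edgeR adjusted p = 0.043), where F4 had the largest fall, -1.41.

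Symbols were at hand for 224 of 30919 genes (0.724%), all of them genes that the study lists for a correlation with survival. Pathways could thus be read only in small part, and every member read was chosen by survival in these same libraries. Of 19 pathway lists, 16 had a tested member. GATA2 was the only member called in any of them, beside 8 of 30919 genes over all (0.0259%). It stood in the list of regulators of zygotic genome activation, of which 2 of 23 symbols were measured. That call is the GATA2 result given above and says nothing more about the list. The other measured member of that list, CTCF, an architectural protein of chromatin, had an interaction of 0.18 (SE 0.311). Of the heat shock proteins, HSPA9 and DNAJA1 had -0.09 (SE 0.251) and 0.07 (SE 0.324). Of the list of cyclins and spindle, 0 of 5 measured members passed. At a share of 0.0259% over all genes, so few members say nothing about the list. TACC3 and KIFC3, of the mitotic spindle and the kinesins, had -0.16 (SE 0.244) and -0.11 (SE 0.264). SRC, a kinase of egg activation in fish, had -0.23 (SE 0.293), COX5B of the respiratory chain 0.11 (SE 0.253), and ACVR1BA, an activin receptor, -0.39 (SE 0.340). PBX2, a homeobox cofactor, had 0.19 (SE 0.294).

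The size of the whole response did not differ detectably with competence. The median absolute paired change over genes at a mean of 10 or more was 0.279, 0.382, 0.403 and 0.286 in F1, F4, F7 and F8, against 0.352, 0.326 and 0.390 in F2, F3 and F6. It averaged 0.338 ± 0.0641 in increased (SD, n = 4) and 0.356 ± 0.0323 in decreased females (SD, n = 3; two-sided exact permutation p = 0.657). Genes with a paired change over 1 in absolute value numbered 978, 2836, 2735 and 1363 in F1, F4, F7 and F8, against 2037, 1402 and 2452 in F2, F3 and F6 (two-sided exact permutation p = 1). Those higher in gynogenetic eggs numbered 256, 2189, 1231 and 538 in F1, F4, F7 and F8, against 1117, 646 and 1518 in F2, F3 and F6. Those lower numbered 722, 647, 1504 and 825 in F1, F4, F7 and F8, against 920, 756 and 934 in F2, F3 and F6. More genes were thus higher than lower in F4, F2 and F6, and more were lower in F1, F7, F8 and F3. In all, 11 such values per female were tested, and the lowest exact permutation p was 0.400 (1 after adjustment over the 11).

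Nor were females of the same competence found to be more alike in what changed. Over 24042 genes, the paired changes of 2 females correlated with a mean r of 0.167 within a competence class (9 pairs of females) and of 0.226 between classes (12 pairs). The difference of -0.059 gave a two-sided exact permutation p of 0.343 over 35 splits. The highest r of all was 0.525, between F7, of increased, and F6, of decreased competence. The lowest was -0.034, between F7 and F2.

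**Figure D5:**
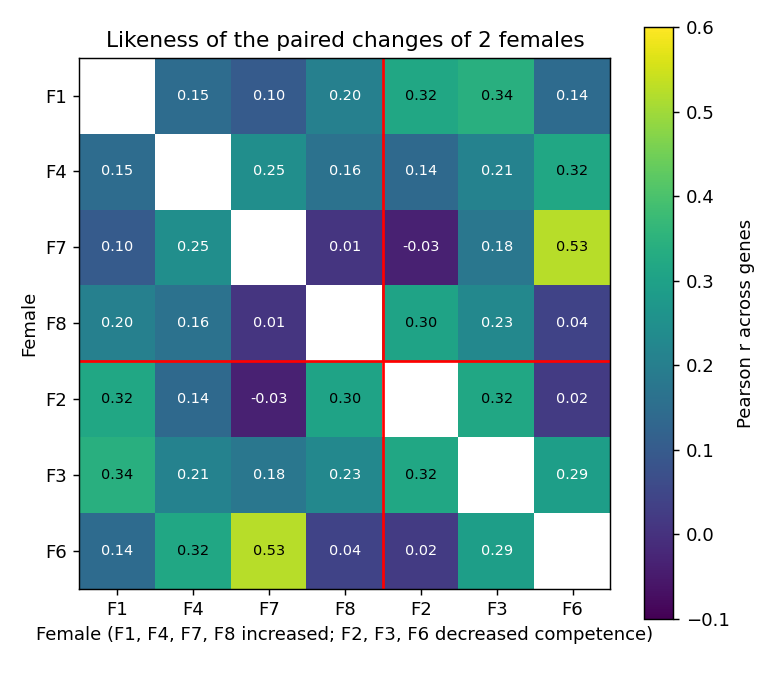
Pearson r across 24042 genes of the paired changes of each 2 females, with increased females before decreased females on both axes and red lines between the classes. The highest value, 0.53, joins F7 and F6 across the classes, and the mean within classes (0.167) is below that between classes (0.226).

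Technical values of the pairs moved with this likeness to differing degrees. F7 and F6 had the largest rises in the assigned share of uniquely mapped read pairs, 5.53 and 3.02 percentage points in the gynogenetic over the control library, and the largest depth ratios, 1.96 and 1.41. The share fell by 2.37, 3.32 and 2.06 points in F2, F3 and F8, whose r with one another lay between 0.228 and 0.316. Pairs farther apart in the change of this share than F2, F3 and F8 had r of 0.342 for F1 and F3, 0.318 for F4 and F6 and 0.317 for F1 and F2. The share changed by 0.013 points in F1 and by 0.834 points in F4. Over the 21 pairs of females, which share the 7 females, r between likeness and the gap in the change of the assigned share was -0.541. With the gap in the change of the share held by the 10 most abundant genes it was -0.719. It was -0.439 with the gap in the change of genes detected and -0.312 with the gap in the log2 depth ratio. With being of the same competence class it was -0.222. These correlations are descriptions, and the part of library quality in the likeness was not tested.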

How the data were processed

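PolyA RNA of 14 egg pools was sequenced. The authors checked reads with FastQC 0.11.9, mapped them with STAR 2.7.5c and obtained counts with HTSeq 1.99.2 on the OmykA_1.1 build. The deposited files hold these raw counts for 64494 Ensembl genes. The submitters' notes also list DESeq2 (3.16). Whether counting used the strand is not stated. The 5 summary lines of each file were left out, and 0 columns of other series were met. GEO's labels give treatment and replicate number. Female and competence came from the study.

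Genes with a mean above 1 DESeq2-normalized count were tested with edgeR 4.0.16 (quasi-likelihood, TMM, R 4.3.3) in 1 fit of 14 libraries with female, treatment and treatment by competence. The prior degrees of freedom were infinite, so the spread came from the trend over genes alone. Each SE was the absolute interaction divided by the square root of its F statistic in the same fit. It is likewise not the gene's own spread between females. The 2 libraries of a female deviated together (r of 0.373 to 0.529 within and at most 0.0548 between females), and both come from 1 clutch, which gives the pairing. Each library is 1 pool, so spread between pools of a clutch cannot be told apart from spread between females in the response. The edgeR p-values thus set each gene against the trended spread, not against its own spread between females. At 100 counts, counting error is small beside the trended spread, and below 10 counts it is not. Single values per female were tested by exact permutation. In simulated data, the fit recovered 13.4% of 2-fold, 46.3% of 4-fold and 78.8% of 8-fold interactions, and it called 5 unchanged genes. A gene that did not pass is thus not shown to lack an interaction. The members and lists were chosen with earlier results of these data known. Genes were named by the lowest interaction p in each direction at a mean of 10 or more (10 genes, and 8 with a symbol), the 5 widest gaps, the study's tabulated and qPCR genes, and 2 members of each list. Unnamed genes are given by identifier for 2 genes in each direction at most, and not every gene that the rule reaches is described (1 is not reported here). Symbols came from the study's lists, since the RefSeq table at hand (USDA_OmykA_1.1) holds no Ensembl identifiers, and no coordinates are given. The alternatives were other tools, scalings, filters, pseudocounts, the survival rank, no block and leaving out each female.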

Additional observations from a re-analysis of the deposited data

Results flagged for a closer look

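In F8, the paired change of GATA2, 3.85, stood apart from the other 3 increased females, which lay between 1.03 and 1.45, and without F8 (replicate 7) the interaction was 3.58. In F4, the paired change of KATNBL1, -1.24, stood apart from values between -0.56 and -0.50, and that of PPM1AB, -0.19, from values at 0.00. PPM1AB was listed at 0 in both libraries of F7 and F8 and in the gynogenetic library of F4, so its gap lies at the floor. Such a gap arises by chance in about 1 of 20 groups, and 46 named genes were screened for it. The response differed between increased and decreased females by the edgeR test of the interaction for GATA2 (4.22), ENSOMYG00000028553 (1.18), ENSOMYG00000027300 (-2.24) and ENSOMYG00000042351 (-5.30). Of the last 3, DESeq2 called ENSOMYG00000027300 alone, and limma, filterByExpr and a mean of 10 or more left none of them called. For CNN1B, all increased females lay below 0 and all decreased females above, a difference of the means of -0.96. CNN1B was flagged for this separation, so its exact permutation p of 0.0286, the smallest that test allows, adds no support. Neither limma on the paired changes (adjusted p = 0.9998) nor the edgeR interaction (adjusted p = 1) passed for CNN1B.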

How the results depend on the processing

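The count of 8 interaction genes depended on the fit. Without the replicate block edgeR called 0 genes (394 at an unadjusted p below 0.05), limma on the paired changes 0 (975) and edgeR at a mean of 10 or more 0 (484). filterByExpr left 1 (GATA2, higher; 0 lower), DESeq2 2 (1 higher and 1 lower) and a trend on the survival rank 5 (1 higher; 1470 unadjusted). edgeR called 8 with DESeq2 size factors, with no filter and with a robust prior, which was added after seeing the data. For GATA2 the adjusted p was 1.7e-08 in DESeq2, 0.042 after filterByExpr, 0.16 at a mean of 10 or more, 0.9998 in limma and 1 without the block. Leaving out each female gave 1 to 17 genes (1 to 10 higher, 0 to 11 lower; 492 to 1297 unadjusted). F4 decided most, since without it GATA2 alone was called. Without F2, F3, F6, F7 and F8 the counts were 13, 4, 14, 17 and 5. Genes changed by treatment numbered 2 in increased and 0 in decreased females without the block, 52 and 16 in limma, 218 and 243 after filterByExpr and 187 and 225 at a mean of 10 or more. When a female was left out they were 215 to 716 in increased and 189 to 787 in decreased females. Genes without overlap were 751 to 1863 higher and 1366 to 2302 lower, since fewer females overlap less. The difference in genes over 1 turned to -112 at a mean of 100 or more and -26.3 with a pseudocount of 1, and leaving out a female gave -272 to 348. The median absolute change then differed by -0.0405 to 0.00091 and the r of a pair by -0.0018 to 0.0026. The SD of the paired changes over genes differed by -0.0372 to 0.0206 in these fits.

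Of 46 named genes, 16 changed sign in some setting, none of them called. On the survival rank these were GRAMD1C -0.027, IRS2A 0.085, MYRIP -0.15, PRLHR2A -0.015, DAZAP2 -0.059, DNAJA1 -0.056, TACC3 0.022, KIFC3 0.092 and COX5B -0.011. Without the block they were MYRIP -0.11, PPDPFA 0.045, ALX1 0.034, KIFC3 0.015, BRF2 0.0086 and DAPK3 0.072, and in limma MYRIP -0.25. When a female was left out, the range was -3.48 to 0.30 for ALX1, -0.20 to 0.17 for BRF2, -0.061 to 0.27 for COX5B, -0.34 to 0.13 for DAPK3, -0.26 to 1.059 for DAZAP2, -0.22 to 0.34 for DNAJA1, -0.0087 to 1.12 for GRAMD1C, -0.21 to 0.056 for HSPA9, -0.57 to 0.24 for KIFC3, -0.15 to 0.57 for MARCHF7, -0.58 to 1.47 for MYRIP, -0.043 to 0.40 for PBX2 and -0.49 to 0.23 for PPDPFA. The causes were not tested.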
